A study of Mus musculus with 20 samples.

Results

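The study's data were read for 10 genes chosen by name: Dnmt1, Uhrf1, Dnmt3a, Dnmt3b and Dnmt3l, which write DNA methylation, Tet1, Tet2 and Tet3, which remove it, and the RNA-binding proteins Lin28a and Lin28b. They are 10 of the 54446 gene IDs in the deposited tables, the rule is a list of names, and all 10 passed the filter on low values that left 14290 genes. Bulk RNA sequencing covered 15 libraries from mouse embryonic stem cells of the F1G4 strain label, which carry T::H2B-mCherry and Sox2::H2B-Venus reporters. Every library shares this reporter line, removal of feeder cells before aggregation, and a pulse of 3 µM CHIR99021 after 48 h, a compound that activates WNT signalling. The group 96h holds precursor structures at 96 h with 10 structures pooled per library. The group Gastruloid holds gastruloids at 120 h, TLSMG structures at 120 h in Matrigel (a basement membrane gel), TLSMGC structures in Matrigel with CHIR, and TLSMGCL structures in Matrigel with CHIR and LDN (a BMP receptor inhibitor), each with 6 structures pooled per library. Each group has 3 libraries, labelled biological replicates. Structures were picked for an asymmetric pole, so the libraries describe pools of picked structures of a single line; the doses of CHIR and LDN in the last day are not given in the sources used here.

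DNA methylation at CpG sites is copied after replication by Dnmt1, which Uhrf1 guides to hemimethylated CpGs, and is laid down on unmethylated DNA by Dnmt3a and Dnmt3b, with Dnmt3l as a catalytically inactive cofactor. Tet enzymes oxidise methylcytosine, which can lead to its loss. Dnmt3b is high in the epiblast around implantation and declines as lineages form, and Dnmt3l is a gene of pluripotent cells and germ cells. Lin28a and Lin28b are high in early embryonic cells, where they block the maturation of let-7 microRNAs, and let-7 in turn represses both of them together with growth genes such as Hmga2 and Mycn.

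The let-7 microRNAs a, g and i are shown because the Lin28 proteins act on this family. The capitals mark the seed, bases 2 to 8, which pairs with target messenger RNAs and is the same in all 3. In the precursor of let-7g, the capitals mark GGAG, the 4 bases of the loop region that Lin28 proteins bind. Sequences are from RefSeq, and the microRNAs themselves were not measured here.
let-7a-5p: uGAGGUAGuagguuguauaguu
let-7g-5p: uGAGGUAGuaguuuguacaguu
let-7i-5p: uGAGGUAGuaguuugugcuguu
Mirlet7g precursor: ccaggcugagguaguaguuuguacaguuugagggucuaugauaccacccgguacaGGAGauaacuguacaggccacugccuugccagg

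The stretches from 250 to 51 bases before the RefSeq starts of Dnmt3b (GRCm38.p6, chr2:153649199-153649398, plus strand) and Lin28a (chr4:134018867-134019066, minus strand) are shown because these were the members that fell in both Gastruloid and TLSMG. Capitals mark CpG, the letters that the Dnmt and Tet enzymes act on.
Dnmt3b: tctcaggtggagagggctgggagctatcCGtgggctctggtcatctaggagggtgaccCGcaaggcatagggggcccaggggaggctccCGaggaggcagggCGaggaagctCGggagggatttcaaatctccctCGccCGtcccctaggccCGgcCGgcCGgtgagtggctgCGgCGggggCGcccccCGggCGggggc
Lin28a: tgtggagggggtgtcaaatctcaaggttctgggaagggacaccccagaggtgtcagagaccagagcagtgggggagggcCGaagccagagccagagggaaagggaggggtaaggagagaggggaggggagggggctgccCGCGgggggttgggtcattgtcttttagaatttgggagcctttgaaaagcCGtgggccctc
The Dnmt3b stretch holds 15 CpGs and the Lin28a stretch 4. Over windows of 250 bases before to 50 after the start, Dnmt3b had 30 CpGs, a number reached by 11.7% of 32851 such windows, and Lin28a had 10, reached by 43.5%. The letters CTTTGNA, a form of the motif of TCF and LEF factors, were searched on both strands and lie once in the Lin28a window and nowhere in the Dnmt3b window, and 18.1% of all windows hold them. A match in letters is a description and not a binding site, and no methylation was measured.

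Relative depth, coverage per unit of FPKM in genes with a single transcript, ran from 3.12 to 6.84, and the tables hold no counts, so no counting interval was made. TPM is a transcript abundance corrected for length and for the library's total, so levels can be compared between genes. On TPM the whole distribution shifted: the median log2 difference over all genes was 0.143 for TLSMG against 96h, 0.134 for TLSMG against Gastruloid, -0.157 for TLSMGC against TLSMG and -0.184 for TLSMGCL against TLSMG, and between -0.04 and 0.00 for the other main pairs. Small differences are therefore also given after median-of-ratios scaling, which brought these medians to between -0.02 and 0.00. The labels name only embryonic stem cells as the cell type, and the structures hold several. Summed TPM of 7 presomitic mesoderm markers was 1461.5 to 1762.8 at 96h and 94.2 to 396 in the 120 h libraries, that of 8 neural tube markers was 296 to 425 in Gastruloid and 34.3 to 46.5 in TLSMGC, and that of 7 endothelial markers was 234 to 285 in TLSMG and at most 72.4 elsewhere. In such pools a change in cell make-up and a change of RNA within cells cannot be told apart.

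Uhrf1 and Lin28a were the most abundant members, with means of 247 and 312 TPM over the 15 libraries, followed by Dnmt1 at 179 TPM. Dnmt3b averaged 61.5 TPM, Lin28b 47.9, Dnmt3a 44.0, Tet3 21.6 and Tet1 20.3. Dnmt3l at 4.61 TPM and Tet2 at 2.58 TPM were the scarcest. In limma's moderated F test across all 5 groups, 8 of 10 members differed, against 73.5% of all genes tested, so the share is near the background. Tet1 (adjusted p = 0.0533) and Tet2 (adjusted p = 0.127) did not pass. Among the 4 groups at 120 h the same 8 members passed, against 62.7% of all genes. Without TLSMG replicate 3 that count was 5.

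**Figure D1:**
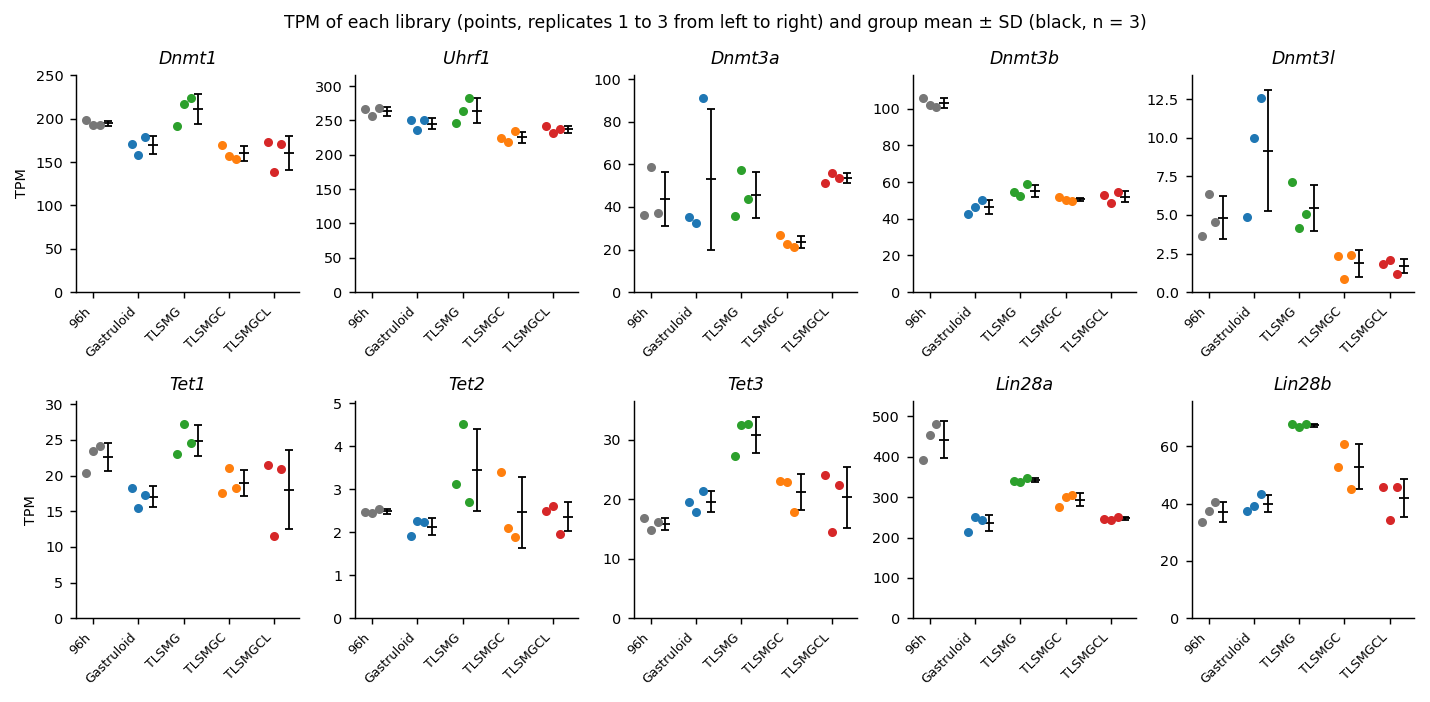
TPM (y axis, linear from 0) of the 10 genes in each of the 15 libraries (points) with the mean and SD of each group of 3 (black). Dnmt3b and Lin28a are highest in the 3 libraries at 96h, Tet3 and Lin28b in the 3 TLSMG libraries, and Dnmt3l is lowest in the 6 libraries with added CHIR.

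From 96 h to 120 h, Dnmt3b and Lin28a fell in Gastruloid and in TLSMG, while Tet3 and Lin28b rose in TLSMG. Between Gastruloid and 96h, 2 of 10 members changed, both lower, against 41.2% of all genes changed, 20.8% higher and 20.5% lower. Between TLSMG and 96h, 4 of 10 changed, with 2 higher and 2 lower, against 46% of all genes changed, 33.5% higher and 12.5% lower. These 6 calls held in every alternative that was run. Median log2 differences over the members were -0.13 and 0.12, and those over all genes 0.004 and 0.143. Of all calls in TLSMG against 96h, 72.9% were higher on TPM and 49.2% after median-of-ratios scaling, and in Gastruloid against 96h 50.4% were higher on TPM and 62.4% on FPKM, a scale without the per-library total of TPM. The comparisons with 96h share its 3 libraries.

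Matrigel at 120 h was tested as TLSMG against Gastruloid. By limma's test 7 members rose and none fell (7 had an unadjusted p under 0.05), against 39.3% of all genes changed, 31.5% higher and 7.87% lower. The median log2 difference over the 10 members was 0.40, and that of all genes was 0.134. After median-of-ratios scaling 3 of the 7 remained, Tet3, Lin28a and Lin28b, and after a correction for GC content and length 2, Tet3 and Lin28a. Without Gastruloid replicate 2 there were 4 calls. Of the calls over all genes, 80.0% were higher on TPM and 51.6% after median-of-ratios scaling.

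CHIR in Matrigel was tested as TLSMGC against TLSMG, where 7 members fell and none rose, against 40.9% of all genes changed, 30.5% lower and 10.4% higher (limma, with 7 members at an unadjusted p under 0.05). The members' median log2 difference was -0.37, and that of all genes -0.157. Median-of-ratios scaling left 3 of these calls, Dnmt1, Dnmt3l and Tet3, and the GC and length correction 2, Dnmt1 and Dnmt3l. There were 3 calls without TLSMG replicate 2, 3 without TLSMG replicate 3 and 4 without TLSMGC replicate 3. TLSMGCL against TLSMG, which shares the TLSMG libraries, also gave 7 members lower and none higher, against 44.9% of all genes changed, 35.6% lower and 9.31% higher (8 members had an unadjusted p under 0.05), and median-of-ratios scaling left 5 of them, Dnmt1, Dnmt3l, Tet3, Lin28a and Lin28b. Of all calls, 25.5% and 20.7% were higher in these 2 comparisons on TPM, and 49.4% and 48.8% after median-of-ratios scaling. LDN on top of CHIR, TLSMGCL against TLSMGC, gave no member call by limma, against 1.18% of all genes changed, 0.406% higher and 0.777% lower, and 3 members (Dnmt3a, Lin28a and Lin28b) had an unadjusted p under 0.05, as did 1850 of the 14290 genes. Of the 169 genes called there, 58 were higher and 111 lower on TPM, against 103 higher and 99 lower after median-of-ratios scaling.

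The other pairs of groups, which differ in more than one condition and share libraries with the comparisons above, completed the picture of levels. TLSMGC against 96h had 1 member higher (Lin28b, 0.49) and 6 lower (Dnmt1, Dnmt3a, Dnmt3b, Dnmt3l, Uhrf1 and Lin28a), against 40.7% of all genes changed, 20.6% higher and 20.1% lower. TLSMGCL against 96h had 5 lower (Dnmt1, Dnmt3b, Dnmt3l, Uhrf1 and Lin28a), against 39.5% of all genes changed, 17.4% higher and 22.1% lower. TLSMGC against Gastruloid had Lin28a and Lin28b higher (0.32 and 0.39) and Dnmt3a and Dnmt3l lower, against 42.2% of all genes changed, 21% higher and 21.2% lower. TLSMGCL against Gastruloid had Dnmt3l lower and no other call on TPM (log2 difference -1.85, limma adjusted p = 0.000438), against 36.1% of all genes changed, 15% higher and 21.1% lower. With median-of-ratios scaling Uhrf1 in TLSMGCL against 96h was not called (-0.12, adjusted p = 0.0807), while Tet3 in TLSMGC against 96h (0.38, adjusted p = 0.0351) and Dnmt3b in TLSMGCL against Gastruloid (0.19, adjusted p = 0.018) were called higher. The GC and length correction ended the calls of Lin28b in TLSMGC against Gastruloid (0.11, adjusted p = 0.193) and Dnmt3a in TLSMGC against 96h (-0.74, adjusted p = 0.0632). It also ended those of Dnmt1 and Uhrf1 in TLSMGCL against 96h (-0.10 and -0.04, adjusted p = 0.0844 and 0.419). Under it Tet3 was called higher in both groups against 96h, and Dnmt3b in both against Gastruloid.

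**Figure D2:**
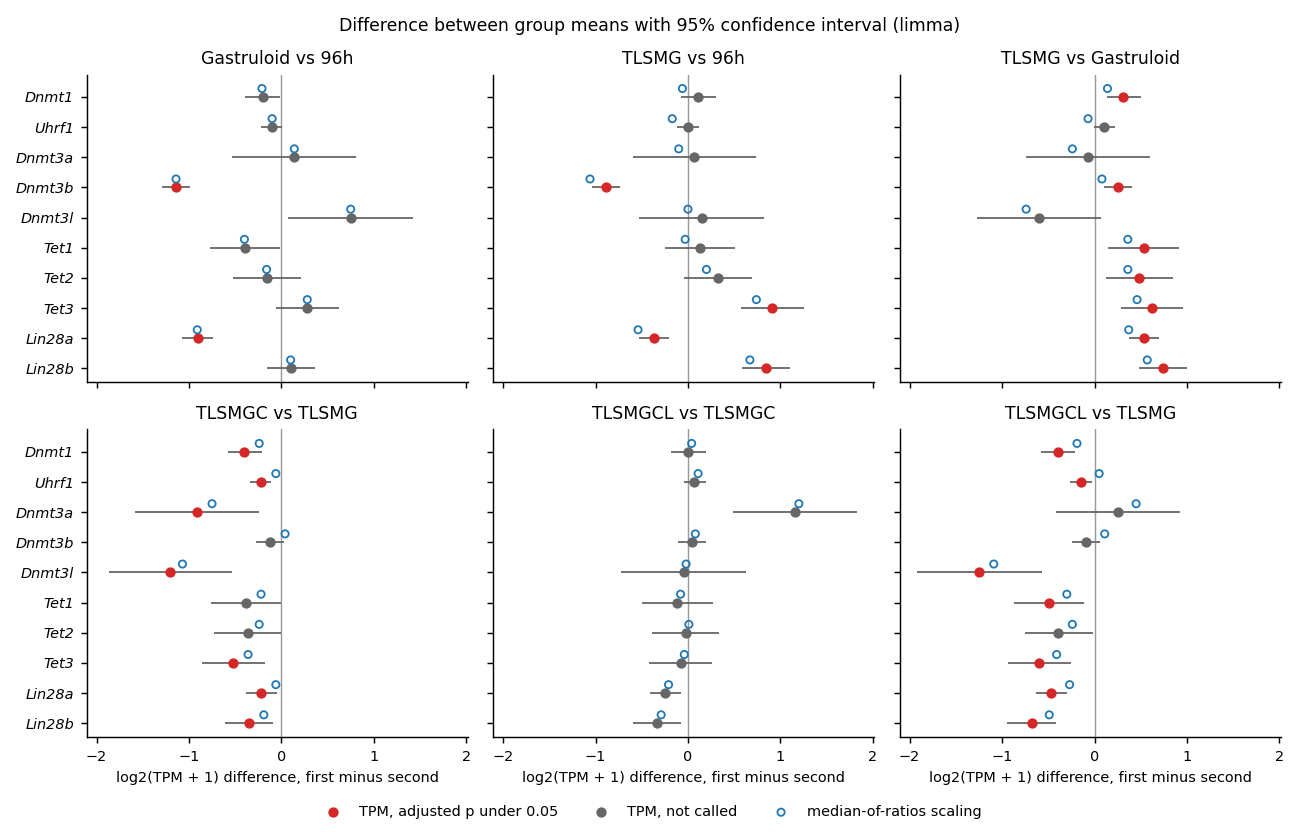
Difference in mean log2(TPM + 1) between 2 groups (x axis, first group minus second) for each gene, with the 95% confidence interval of the limma fit, in the 6 comparisons. Red points have an adjusted p under 0.05, and open blue circles give the difference after median-of-ratios scaling, which takes Uhrf1 from -0.15 to 0.05 in TLSMGCL against TLSMG.

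Dnmt1 (ENSMUSG00000004099.16, GRCm38 chromosome 9, 20907209 to 20959888, minus strand), the maintenance methyltransferase, measured 197.8, 192.8 and 193.5 TPM at 96h and 170.6, 157.6 and 179.0 in Gastruloid. In the structures grown in Matrigel it measured 191.4, 216.9 and 223.9 TPM in TLSMG, 169.6, 156.5 and 152.8 in TLSMGC, and 173.1, 138.5 and 170.8 in TLSMGCL. The TLSMG libraries lay above all libraries of the other 120 h groups. The fall from TLSMG to TLSMGC was -0.40 on the log2 scale (SE 0.09, limma adjusted p = 0.00249) and -0.24 after median-of-ratios scaling (adjusted p = 0.00893). In TLSMGCL it was -0.39 (adjusted p = 0.00242), a call that the GC and length correction ended (-0.10, adjusted p = 0.0847). Dnmt1 was higher in TLSMG than in Gastruloid (0.31, adjusted p = 0.0112), but not with median-of-ratios scaling (0.14, adjusted p = 0.081) or without Gastruloid replicate 2 (0.27, adjusted p = 0.0501). None of the 4 neighbouring pairs in the order of its levels (TLSMG, 96h, Gastruloid, TLSMGCL, TLSMGC) differed beyond their spread.

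Uhrf1 (ENSMUSG00000001228.14, chromosome 17, 56303321 to 56323486, plus strand), which binds hemimethylated CpGs and brings Dnmt1 to them, had the smallest spread within groups of the 10 members, a mean coefficient of variation of 3.70%. Its group means ran from 226 ± 8.34 TPM in TLSMGC to 264 ± 18.3 in TLSMG (SD, n = 3), and its lowest and highest libraries were 217.6 and 282.6 TPM. It fell in TLSMGC against TLSMG by 0.22 on the log2 scale (SE 0.05, limma adjusted p = 0.00512), but median-of-ratios scaling left -0.06 (adjusted p = 0.377). Its fall in TLSMGCL against TLSMG, -0.15 (adjusted p = 0.0365), turned to 0.05 under that scaling, and the call was lost without TLSMG replicate 2 or 3 (adjusted p = 0.0818 and 0.162) and without TLSMGCL replicate 2 or 3 (0.101 and 0.0732). No neighbours in the order of its levels differed. Dnmt1 and Uhrf1 varied together over the 15 libraries (Pearson's r = 0.85, a description across libraries that share groups and scaling).

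On TPM, genes of DNA replication and mitosis were, like Dnmt1 and Uhrf1, lower with added CHIR. After median-of-ratios scaling Uhrf1 was not called against TLSMG in TLSMGC (-0.06, limma adjusted p = 0.377) or TLSMGCL (0.05, adjusted p = 0.489). Summed TPM of 18 proliferation genes ran from 3775.0 to 4004.7 in TLSMG and from 3471.8 to 3579.0 in 96h and Gastruloid. The libraries with added CHIR lay lower, between 2851.2 and 3053.3. From 96h to TLSMG the mean sum went from 3498.3 to 3894.6, and the mean of Uhrf1 was 263 and 264 TPM. After median-of-ratios scaling 4 of the 18 genes were higher and 3 lower in TLSMG than at 96h, with a median of 0.03. Uhrf1 was then lower in TLSMG (-0.17, limma adjusted p = 0.017). In Gastruloid the mean sum was 3532.8, and its libraries overlapped those at 96h. Between these groups neither Dnmt1 nor Uhrf1 was called on TPM (limma adjusted p = 0.0734 and 0.15). After median-of-ratios scaling Dnmt1 was lower in Gastruloid (-0.21, adjusted p = 0.0161). Of these 18 genes, 14 were lower in TLSMGC than in TLSMG and 14 in TLSMGCL, led by Mki67, a marker of cycling cells, which went from 145 TPM in TLSMG to 80.2 and 72.8 TPM, against 30.5% and 35.6% of all genes lower. Their medians were -0.39 and -0.38, and those of all genes -0.157 and -0.184. After median-of-ratios scaling 11 and 6 of the 18 were lower. The part of proliferation in the Dnmt1 and Uhrf1 differences was not tested.

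The partners of Dnmt1 included Hells, a remodelling ATPase needed for methylation of heterochromatin, Pcna, the sliding clamp of replication, and Lig1, the ligase of lagging strands. Of 8 named partners 7 were found and tested. Of these, 6 were lower in TLSMGC than in TLSMG and 6 in TLSMGCL, and 4 were higher in TLSMG than in Gastruloid, with medians of -0.31, -0.32 and 0.15 beside -0.157, -0.184 and 0.134 for all genes. Of all genes, 30.5%, 35.6% and 31.5% were called in these directions. With median-of-ratios scaling 1, 2 and 2 partners were called in the same directions, and 1 was lower in TLSMG than in Gastruloid. Hells had the largest difference, from 36.0 ± 2.64 TPM at 96h and 31.7 ± 1.93 in Gastruloid to 68.7 ± 1.34 in TLSMG, 51.2 ± 6.90 in TLSMGC and 41.4 ± 8.01 in TLSMGCL. Its log2 difference between TLSMG and Gastruloid was 1.10 (limma adjusted p = 9.19e-05). Pcna was 0.33 higher in Gastruloid than at 96h (adjusted p = 0.00112), and Uhrf2, a relative of Uhrf1, was -0.44 (adjusted p = 0.00776).

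Dnmt3b (ENSMUSG00000027478.15, chromosome 2, 153649450 to 153687730, plus strand), the de novo methyltransferase of the early embryo, had the smallest adjusted p of the 10 members in the F test of 5 groups (6.93e-08). It measured 106.4, 102.4 and 101.3 TPM at 96h, 42.6, 46.4 and 50.5 in Gastruloid, and 54.4, 52.5 and 58.9 in TLSMG. It measured 51.7, 50.2 and 49.9 TPM in TLSMGC and 52.8, 48.6 and 54.6 in TLSMGCL. The lowest library at 96h was well above the highest of the 12 libraries at 120 h, 58.9 TPM. Against 96h the ratio of means was 0.450 in Gastruloid (log2 difference -1.14, SE 0.07, limma adjusted p = 2.6e-08) and 0.535 in TLSMG (-0.89, SE 0.07, adjusted p = 2.73e-07). Over the alternatives these differences ranged from -1.20 to -1.04 and from -1.06 to -0.85.

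Among the 120 h groups the means of Dnmt3b ran from 46.5 to 55.3 TPM, and it passed limma's F test of these 4 groups (adjusted p = 0.0403). It was higher in TLSMG than in Gastruloid by 0.25 (adjusted p = 0.0130), but not with median-of-ratios scaling (0.08, adjusted p = 0.295) nor when Gastruloid replicate 1 or TLSMG replicate 3 was left out (0.19 and 0.20, adjusted p = 0.0657 and 0.0606). With the GC and length correction Dnmt3b was higher in TLSMGCL than in TLSMG (0.21, limma adjusted p = 0.0116). Both groups with added CHIR were then above Gastruloid (0.18 in TLSMGC and 0.25 in TLSMGCL, adjusted p = 0.0212 and 0.00355). On TPM the 3 neighbouring pairs below 96h in the order of Dnmt3b levels (TLSMG, TLSMGCL, TLSMGC, Gastruloid) did not differ beyond their spread. Adding CHIR gave -0.12, with a 95% confidence interval of -0.27 to 0.03. The 3 genes whose pattern was most like that of Dnmt3b over the 15 libraries were Slit3, an axon guidance ligand (r = 0.992), Ripply2, a repressor at the forming somite boundary (r = 0.990), and Exoc6b, an exocyst subunit (r = 0.990). Ripply2 went from 184 TPM at 96h to between 2.68 and 5.59 TPM in the 120 h groups. Presomitic mesoderm markers moved the same way as Dnmt3b from 96h to 120 h, but were higher in TLSMGC (310 to 396 summed TPM) than in TLSMG (121 to 150) where Dnmt3b was not; their part in the fall was not tested.

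Dnmt3a (ENSMUSG00000020661.15, chromosome 12, 3806007 to 3914443, plus strand), the other catalytic de novo methyltransferase, had levels that depended on the deposited column. It measured 36.1, 58.6 and 37.0 TPM at 96h, 35.1, 32.7 and 91.3 in Gastruloid, 35.9, 57.4 and 43.9 in TLSMG, 26.9, 22.7 and 21.1 in TLSMGC, and 51.4, 56.1 and 53.7 in TLSMGCL. Single libraries stood apart in 3 groups, and the mean of TLSMGCL was 2.28 times that of TLSMGC. On TPM, Dnmt3a was lower in TLSMGC than in TLSMG (-0.91, SE 0.31, limma adjusted p = 0.0317), a call lost without TLSMG replicate 2 (-0.74, adjusted p = 0.120), TLSMG replicate 3 (0.0661), TLSMGC replicate 2 (0.0715) or TLSMGC replicate 3 (0.0934). Its place below 96h in TLSMGC (-0.84, adjusted p = 0.0445), the one step in the order of its levels that differed, was lost on leaving out any one of the 6 libraries compared, with adjusted p from 0.0514 to 0.173, and with the replicate number as a block (adjusted p = 0.0551).

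The deposited coverage column, the average number of reads over each exonic base, ordered the libraries differently. Divided by relative depth it was 2.09, 1.37 and 2.36 at 96h, 2.50, 1.94 and 1.73 in Gastruloid, and 2.02, 1.56 and 2.86 in TLSMG. In TLSMGC it was 1.22, 1.26 and 1.29, and in TLSMGCL 1.02, 1.10 and 1.14, so all 6 libraries with added CHIR lay below the other 9. Coverage per unit of FPKM and depth was 0.037 to 0.060 in the 3 TLSMGCL libraries, 96h replicate 2, Gastruloid replicate 3 and TLSMG replicate 2, and 0.094 to 0.145 in the other 9. The highest value was 3.88 times the lowest, a ratio reached by 0.412% of 14093 genes, with a median of 1.09 over genes. With coverage in place of TPM, Dnmt3a in TLSMGCL against TLSMG went from 0.25 (adjusted p = 0.532) to -1.05 (adjusted p = 0.00126), and in TLSMGCL against TLSMGC from 1.16 (adjusted p = 0.101) to -0.24 (adjusted p = 0.632). The gene has 18 annotated transcripts in GENCODE M21, and shares 133 exonic bases with the antisense gene Dnmt3aos, whose reads cannot be told apart from its own where strand was not used in the estimate; Dnmt3l shares 67 bases with Aire, and Tet2 43 bases with Gm42567.

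**Figure D3:**
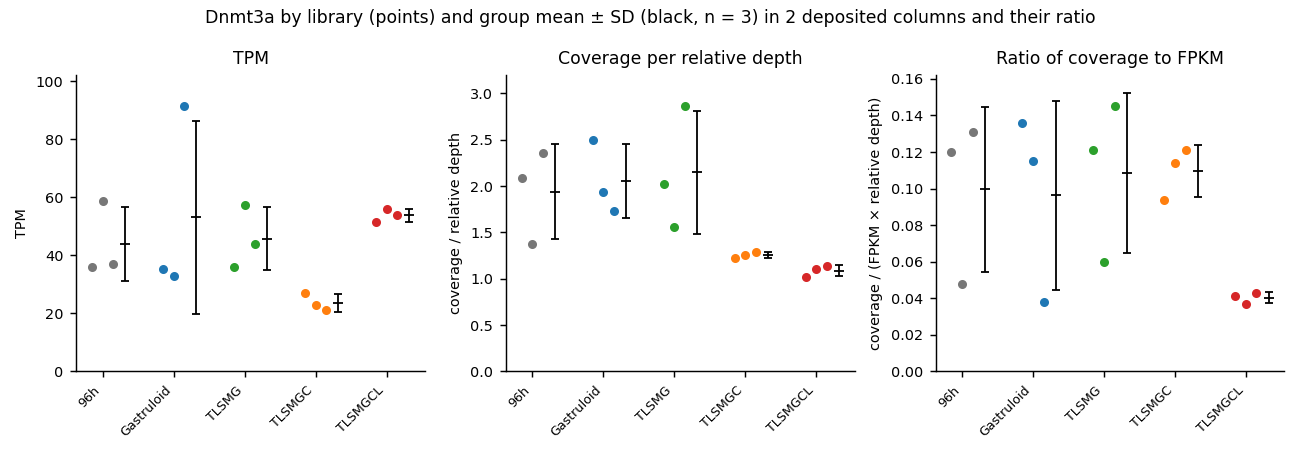
Dnmt3a in each library (points, with group mean and SD in black, n = 3): TPM, coverage divided by relative depth, and coverage per unit of FPKM and depth (y axes, linear from 0). The 3 TLSMGCL libraries are among the high ones by TPM (51.4 to 56.1) and the lowest by coverage (1.02 to 1.14), and their ratio in the third panel lies at 0.037 to 0.043.

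Dnmt3l (ENSMUSG00000000730.13, chromosome 10, 78041947 to 78063622, plus strand), the cofactor without catalytic activity, had the widest range of group means on the log2 scale, 1.85, with libraries from 0.8 to 12.6 TPM. It measured 3.7, 6.3 and 4.5 TPM at 96h, 4.9, 10.0 and 12.6 in Gastruloid, 7.1, 4.2 and 5.1 in TLSMG, 2.3, 0.8 and 2.4 in TLSMGC, and 1.9, 2.1 and 1.2 in TLSMGCL. All 6 libraries with added CHIR were below all 9 others. Against TLSMG the log2 difference was -1.20 in TLSMGC (SE 0.31, limma adjusted p = 0.00757) and -1.25 in TLSMGCL (SE 0.31, adjusted p = 0.00553), and both calls held in every alternative. The difference between Gastruloid and 96h, 0.75 (adjusted p = 0.0708), was not called, but without Gastruloid replicate 1 it was 1.10 (adjusted p = 0.0102), and that between TLSMG and Gastruloid went from -0.60 (adjusted p = 0.143) to -0.95 (adjusted p = 0.0256). The order of its levels was Gastruloid, TLSMG, 96h, TLSMGC, TLSMGCL, and only the step from 96h to TLSMGC differed (adjusted p = 0.0153), a call lost without 96h replicate 2 (adjusted p = 0.066) or TLSMGC replicate 2 (adjusted p = 0.0747).

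Summed levels of pluripotency markers were, like Dnmt3l, lowest with added CHIR. Summed TPM of 8 naive pluripotency markers, such as Zfp42 and Esrrb, was at least 187 in Gastruloid (mean 247), 85.8 to 157 at 96h, and 90.3 to 119 in TLSMG. With added CHIR the sum was lower, at 32.0 to 56.0 (TLSMGC) and 53.0 to 67.1 (TLSMGCL). A single marker, Dppa5a, made up most of the mean sum in every group, so the sum mainly follows that gene. Zfp42 and Esrrb averaged only 9.9 and 6.62 TPM in Gastruloid, and neither was called there against 96h (limma adjusted p = 0.0632 and 0.451). In TLSMGC against TLSMG 6 of the 8 were called lower, and in TLSMGCL 4, against 30.5% and 35.6% of all genes. After median-of-ratios scaling 4 and 2 of the 8 were lower. In Gastruloid against 96h 1 was higher, Dppa5a (log2 difference 1.43, limma adjusted p = 0.00107), and 2 were lower, Klf4 (-1.39, adjusted p = 7.06e-05) and Tfcp2l1 (-0.45, adjusted p = 0.0316), with a median of 0.10. The 8 formative and primed markers summed to 117 to 237 TPM in 96h, Gastruloid and TLSMG and to 41.6 to 61.0 in TLSMGC and TLSMGCL, with Otx2 listed at 0 in all TLSMGCL libraries. Within this sum Sox2 went from 25.7 TPM at 96h to 96.9 in Gastruloid and 80.6 in TLSMG, while Pou5f1 went from 116 to 57.8 and 26.5. In TLSMGC and TLSMGCL Sox2 was at 26.9 and 31.9 TPM, and Pou5f1 at 10.1 and 13.9. Of 6 tested, 2 were higher and 2 lower in Gastruloid than at 96h, against 41.2% of all genes changed. In TLSMG 2 were higher and 3 lower than at 96h, against 46%. Utf1, a chromatin protein of pluripotent cells that is also one of the 8 formative markers, had the pattern most like Dnmt3l (r = 0.948, 15 libraries), with 28.0 TPM in Gastruloid and 2.96 in TLSMGC, followed by Mreg (r = 0.943) and Nosip (r = 0.937). The part of pluripotent cells in the Dnmt3l differences was not tested. For Dnmt3a the genes most alike were Arfgap3 (r = 0.759), Ppil2 (r = 0.748) and Atp6v0d1 (r = 0.728), on TPM values that carry the uncertainty above.

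Germline genes known to be silenced by promoter methylation were mostly near 0. Of 18 named, 14 were below a mean of 1 TPM, and the highest group mean among those 14 was 0.715 TPM, for Sycp3 in TLSMG. The 4 that passed the filter were Tex19.1, Dppa2, Dppa4 and Rhox5, genes that embryonic stem cells also express. Dppa2 was 1.90 ± 0.440 TPM at 96h, 4.58 ± 0.913 in Gastruloid, 2.42 ± 0.184 in TLSMG, 0.367 ± 0.144 in TLSMGC and 0.779 ± 0.0627 in TLSMGCL. Tex19.1 was 0.87 higher in Gastruloid than at 96h (limma adjusted p = 0.0300), and Rhox5 was -1.10 in TLSMGC against TLSMG (adjusted p = 0.00133).

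Tet3 (ENSMUSG00000034832.15, chromosome 6, 83362373 to 83459084, minus strand), the Tet enzyme known from the zygote and the nervous system, was highest in TLSMG. It measured 16.8, 14.8 and 16.1 TPM at 96h, 19.6, 17.9 and 21.3 in Gastruloid, and 27.2, 32.5 and 32.6 in TLSMG. It measured 23.0, 22.9 and 17.8 TPM in TLSMGC and 24.0, 14.5 and 22.4 in TLSMGCL. The TLSMG libraries lay above all 12 others. TLSMG exceeded 96h 1.93-fold (log2 difference 0.91, SE 0.16, limma adjusted p = 0.000393) and Gastruloid 1.57-fold (0.62, adjusted p = 0.00719). Both calls held in every alternative. TLSMGC and TLSMGCL, also in Matrigel, were not called against Gastruloid (0.10 and 0.02, limma adjusted p = 0.623 and 0.928). The falls in TLSMGC (-0.52, adjusted p = 0.0177) and TLSMGCL (-0.60, adjusted p = 0.00725) were lost with the GC and length correction (adjusted p = 0.137 and 0.0858), and the first also without TLSMG replicate 2 (adjusted p = 0.0598), TLSMG replicate 3 (0.0599) or TLSMGC replicate 3 (0.0825). Only the step from TLSMG to TLSMGC differed in the order of its levels (TLSMG, TLSMGC, TLSMGCL, Gastruloid, 96h).

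Tet1 (ENSMUSG00000047146.17, chromosome 10, 62804570 to 62908996, minus strand), the Tet enzyme of embryonic stem cells, measured 20.3, 23.4 and 24.1 TPM at 96h, 18.3, 15.4 and 17.3 in Gastruloid, and 23.0, 27.2 and 24.5 in TLSMG. It measured 17.5, 21.0 and 18.3 TPM in TLSMGC and 21.5, 11.6 and 20.9 in TLSMGCL, where replicate 2 stood apart. That library was also the lowest of its group for Dnmt1, Tet3 and Lin28b. Tet1 was higher in TLSMG than in Gastruloid (0.53, limma adjusted p = 0.0304) and lower in TLSMGCL than in TLSMG (-0.49, adjusted p = 0.0356). Median-of-ratios scaling ended both calls (adjusted p = 0.0857 and 0.149), and without TLSMGCL replicate 2 the second was -0.22 (adjusted p = 0.130). The first call was also lost without Gastruloid replicate 2 or 3 (adjusted p = 0.0987 and 0.056) or TLSMG replicate 2 or 3 (0.0974 and 0.0649), and the second without TLSMG replicate 2 or 3 (0.112 and 0.0718).

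Tet2 (ENSMUSG00000040943.12, chromosome 3, 133463679 to 133545139, minus strand), a Tet enzyme known from blood cells, stayed between 1.9 and 4.5 TPM. Its highest libraries were TLSMG replicate 2 at 4.5 TPM and TLSMGC replicate 1 at 3.4 TPM. It was higher in TLSMG than in Gastruloid (0.48, limma adjusted p = 0.0364), and the call was lost after median-of-ratios scaling (0.36, adjusted p = 0.108) and in 5 of the 6 fits that left out one library, with adjusted p from 0.0516 to 0.164, the exception being TLSMG replicate 3. Tet2 was called lower than TLSMG in TLSMGC without TLSMGC replicate 1 (-0.55, adjusted p = 0.0158) and in TLSMGCL without TLSMG replicate 3 (-0.51, adjusted p = 0.0433). No neighbours in the order of levels of Tet1 or Tet2 differed. Coverage per unit of FPKM also varied for Tet1 (highest 1.69 times the lowest) and Tet2 (2.33 times), and with coverage both were higher in TLSMG than at 96h (0.45 and 0.47, adjusted p = 0.0369 and 0.0420).

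Within the Tet family the balance moved from Tet1 to Tet3 between 96 h and 120 h. Tet3 made up 38.9 ± 3.26% of the summed Tet TPM at 96h (SD, n = 3) and 50.6 ± 1.48% in Gastruloid, 52.1 ± 2.15% in TLSMG, 49.7 ± 2.67% in TLSMGC and 50.1 ± 0.501% in TLSMGCL. The highest share at 96h was 42.6% and the lowest at 120 h 47.0%, so the times did not overlap. Tet1 went from 55.1 ± 3.37% to between 42.1 and 44.5%, and Tet2 held 5.55 to 6.22%. Shares within a library do not depend on how libraries are scaled, but they do depend on the deposited column. By coverage per relative depth Tet3 was already above Tet1 at 96h, with means of 3.61 and 2.31, and in Gastruloid they were 4.75 and 1.70. The shares are descriptions, with no test.

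Genes that act after Tet oxidation were followed as 14 genes of base excision and its helpers. Gastruloid against 96h had 2 higher and 4 lower, and TLSMG against 96h 2 and 2, against 41.2% and 46% of all genes changed, with medians of 0.00 and 0.08 beside 0.004 and 0.143 for all genes. In TLSMGC against TLSMG 2 were lower, in TLSMGCL against TLSMG 2 were higher and 4 lower, and in TLSMG against Gastruloid 4 were higher, against 40.9%, 44.9% and 39.3% of all genes changed. These last 3 comparisons had medians of -0.08, -0.09 and 0.13 beside -0.157, -0.184 and 0.134 for all genes; after median-of-ratios scaling the calls were 1 higher and 2 lower, 4 and 2, and 2 and 3. Tdg, the glycosylase that removes oxidised methylcytosine, was not called on TPM in the 6 comparisons, with group means of 47.8 to 54.4 TPM, but was lower in TLSMG than at 96h after median-of-ratios scaling (-0.23, adjusted p = 0.0446). Gadd45g, a stress and differentiation gene linked to demethylation, moved most: 21.4 ± 4.49 TPM at 96h, 3.19 ± 1.05 in Gastruloid, 10.2 ± 0.939 in TLSMG, 3.76 ± 0.969 in TLSMGC and 4.48 ± 1.05 in TLSMGCL. Its log2 difference from 96h to Gastruloid was -2.43 (limma adjusted p = 7.65e-07), and from Gastruloid to TLSMG 1.45 (adjusted p = 0.000292). Gadd45b, its relative, was 1.20 higher in Gastruloid than at 96h (adjusted p = 2.43e-05). Neil3, a glycosylase, was higher in TLSMG than in Gastruloid (0.73, adjusted p = 0.00151) and lower in TLSMGC than in TLSMG (-0.57, adjusted p = 0.00541).

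Lin28a (ENSMUSG00000050966.9, chromosome 4, 134003330 to 134018841, minus strand) was the more abundant of the paired let-7 blockers in every library. It measured 391.9, 453.9 and 480.7 TPM at 96h, 213.0, 250.7 and 243.2 in Gastruloid, and 340.4, 338.2 and 346.6 in TLSMG. It measured 274.9, 300.9 and 306.0 TPM in TLSMGC and 246.6, 243.0 and 251.7 in TLSMGCL. The 96h libraries lay above all others, and TLSMG above all other 120 h libraries. Against 96h the log2 difference was -0.90 in Gastruloid (SE 0.08, limma adjusted p = 6.65e-07) and -0.37 in TLSMG (SE 0.08, adjusted p = 0.00151). TLSMG exceeded Gastruloid by 0.54 (adjusted p = 0.000267), and TLSMGCL was below TLSMG by a log2 difference of -0.47 (adjusted p = 0.000286). These 4 calls held in every alternative.

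The fall of Lin28a with CHIR alone was smaller, -0.22 (SE 0.08, adjusted p = 0.0349), and was lost after median-of-ratios scaling (-0.06, adjusted p = 0.628) and in 5 of the 6 fits without one library, all but the one without TLSMGC replicate 3, with adjusted p from 0.0515 to 0.126. Adding LDN gave -0.25, with an interval of -0.41 to -0.08 and no overlap between the groups, but an adjusted p of 0.161. In the order of its levels (96h, TLSMG, TLSMGC, TLSMGCL, Gastruloid) the first pair of steps differed, and the rest did not. Lin28a shares 234 exonic bases with Gm13061 on the other strand. Over the 15 libraries it varied with Dnmt3b (r = 0.86), both being highest at 96h.

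Lin28b (ENSMUSG00000063804.8, chromosome 10, 45376620 to 45486395, minus strand), the paralog, followed another course. It measured 33.7, 37.3 and 40.7 TPM at 96h and 37.5, 39.0 and 43.3 in Gastruloid, which overlapped. It measured 67.6, 66.7 and 67.7 TPM in TLSMG, 52.7, 60.7 and 45.2 in TLSMGC, and 45.9, 34.2 and 45.7 in TLSMGCL, so TLSMG was above all others. The rise from 96h to TLSMG was 1.81-fold (log2 difference 0.84, SE 0.12, limma adjusted p = 8.58e-05). The fall from TLSMG to TLSMGCL was -0.68 (adjusted p = 0.00055), and both calls held in every alternative, at 0.42 to 0.91 and -0.75 to -0.25. The difference from Gastruloid to TLSMG, 0.74 (adjusted p = 0.000624), was 0.14 with the GC and length correction (adjusted p = 0.165). The fall with CHIR alone, -0.35 (adjusted p = 0.0327), was lost after median-of-ratios scaling (-0.19, adjusted p = 0.164) and in 5 of the 6 fits without one library, all but the one without TLSMGC replicate 2, with adjusted p from 0.0652 to 0.146.

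Lin28b and Tet3 were the members closest to each other (r = 0.90), both highest in TLSMG. Endothelial markers were also highest there, at 234 to 285 summed TPM, against 8.53 to 11.8 at 96h, and their part in the TLSMG levels was not tested. Only the step from TLSMG to TLSMGC differed in the order of Lin28b levels (TLSMG, TLSMGC, TLSMGCL, Gastruloid, 96h).

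The ratio of Lin28a to Lin28b set 96h apart from the rest. It was 11.9 ± 0.277 at 96h (SD, n = 3), 5.91 ± 0.451 in Gastruloid, 5.07 ± 0.0427 in TLSMG, 5.65 ± 0.979 in TLSMGC and 6.00 ± 0.968 in TLSMGCL. The lowest ratio at 96h was 11.6 and the highest at 120 h 7.11, and the 120 h groups overlapped except for TLSMG, which lay below Gastruloid and TLSMGCL. On TPM, Lin28a was lower in Gastruloid than at 96h and Lin28b was not called (0.10, adjusted p = 0.540), though with the GC and length correction Lin28b was higher there (0.28, adjusted p = 0.00433). In TLSMG Lin28a was lower and Lin28b higher than at 96h. Summed Lin28 TPM was 479 ± 49.0 at 96h, 276 ± 21.7 in Gastruloid, 409 ± 4.79 in TLSMG, 347 ± 17.5 in TLSMGC and 289 ± 10.6 in TLSMGCL.

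**Figure D4:**
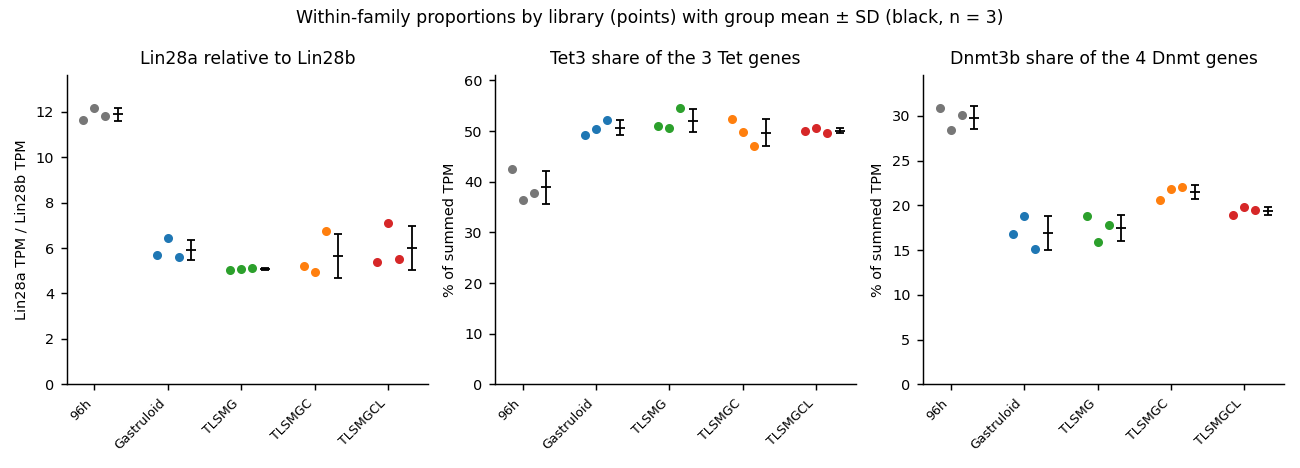
Ratio of Lin28a to Lin28b TPM, share of Tet3 in the summed TPM of the 3 Tet genes, and share of Dnmt3b in the summed TPM of the 4 Dnmt genes (y axes, linear from 0) in each library (points) with group mean and SD (black, n = 3). In all 3 panels the libraries at 96h lie apart from those at 120 h: ratios of 11.6 to 12.2 against at most 7.11, Tet3 shares of at most 42.6% against at least 47.0%, and Dnmt3b shares of at least 28.4% against at most 22.1%.

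The genes of let-7 processing were followed as 10 distinct genes. On TPM 8 were higher in TLSMG than in Gastruloid, 6 were higher in TLSMG than at 96h, and 7 were lower in each of TLSMGC and TLSMGCL than in TLSMG, against 31.5%, 33.5%, 30.5% and 35.6% of all genes in the same directions. Their medians were 0.44, 0.31, -0.40 and -0.47, beside 0.134, 0.143, -0.157 and -0.184 for all genes. With median-of-ratios scaling 6, 3, 4 and 5 were called in the same directions and 1, 2, 2 and 2 in the opposite ones. Tut4, the uridylyl transferase that Lin28a recruits to let-7 precursors, was 22 ± 0.760 TPM at 96h, 25.5 ± 3.61 in Gastruloid, 50.2 ± 3.33 in TLSMG, 35.7 ± 3.98 in TLSMGC and 32.2 ± 7.57 in TLSMGCL. Its log2 difference from 96h to TLSMG was 1.15 (limma adjusted p = 3.08e-05). Dicer1, which cuts the precursors, was 99.1 ± 5.69 TPM in TLSMG and 57.3 ± 8.03 in TLSMGCL (log2 difference -0.79, adjusted p = 1.03e-05), and Trim71, a let-7 target and stem cell ubiquitin ligase, was 68.8 ± 3.17 and 39.6 ± 7.18 TPM (-0.80, adjusted p = 0.000135). Ago2, the slicer of the silencing complex, was -0.75 in Gastruloid against 96h (adjusted p = 0.000442) and 0.88 in TLSMG against Gastruloid (adjusted p = 0.000337). Xpo5, the exporter of precursors, was -0.48 in Gastruloid against 96h, and Ago1 0.58 in TLSMG against 96h.

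Known let-7 targets were followed as 18 genes. Of these, 12 were lower in TLSMGC and 11 in TLSMGCL than in TLSMG and none higher (12 in each had an unadjusted p under 0.05 in limma's test), against 30.5% and 35.6% of all genes lower, with medians of -0.30 and -0.38 against -0.157 and -0.184 for all genes. After median-of-ratios scaling 8 were lower and 1 higher in each. Between TLSMG and Gastruloid 9 were higher and 1 lower, against 31.5% and 7.87% of all genes, or 6 and 3 after that scaling. Mycn, a growth regulator of progenitor cells, was 155 ± 22.6 TPM at 96h, 69.1 ± 5.00 in Gastruloid, 80.5 ± 2.88 in TLSMG, 34.8 ± 2.34 in TLSMGC and 27.3 ± 0.220 in TLSMGCL, a log2 difference of -1.53 between TLSMGCL and TLSMG (adjusted p = 3.83e-08). Ccnd1, the cyclin D1 gene, was 109 ± 0.416 TPM at 96h, 219 ± 11.1 in TLSMG and 98.3 ± 1.95 in TLSMGCL. Hmga2, a chromatin protein with many let-7 sites, was 0.62 higher in TLSMG than in Gastruloid (adjusted p = 0.00278), as was Myc at 0.55 (adjusted p = 0.00963). Ccnd2 went the other way from Mycn between 96h and Gastruloid, at 1.46 (adjusted p = 2.11e-06).

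Suppliers, readers and protectors of methylation were followed as 3 further lists. Of 10 genes of methyl group supply, 7 were higher in TLSMG than in Gastruloid, against 31.5% of all genes, and with median-of-ratios scaling 2 were higher and 1 lower. Mat2a, which makes the methyl donor, had the largest of these differences (0.54, adjusted p = 0.0493), and its call was lost with that scaling (0.37, adjusted p = 0.143). In TLSMGC against TLSMG 4 were higher and 2 lower, against 10.4% and 30.5% of all genes, with Shmt2, a serine hydroxymethyltransferase, at 0.52 (limma adjusted p = 2.11e-05). Of 6 tested readers of methylated CpG, 5 were higher in TLSMG than at 96h and 5 lower in TLSMGCL than in TLSMG, against 33.5% and 35.6% of all genes, or 3 and 1 after median-of-ratios scaling. Zbtb33, the reader Kaiso, was 22.7 ± 0.822 TPM at 96h, 36.1 ± 2.62 in TLSMG and 25.9 ± 3.19 in TLSMGCL. Of 9 tested genes of imprint and CpG island protection, 4 were lower in TLSMGC and 4 in TLSMGCL than in TLSMG, against 30.5% and 35.6% of all genes, or 3 and 2 after that scaling with 0 and 2 higher. Zfp57, which keeps imprints methylated, was 12.6 ± 2.09 TPM in TLSMG and 4.35 ± 0.541 in TLSMGC (log2 difference -1.34, adjusted p = 0.000968), and Dppa3, an inhibitor of Uhrf1 that is also a primordial germ cell marker, was 8.15 ± 2.99 and 2.86 ± 1.39 TPM (-1.25, adjusted p = 0.0157).

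**Figure D5:**
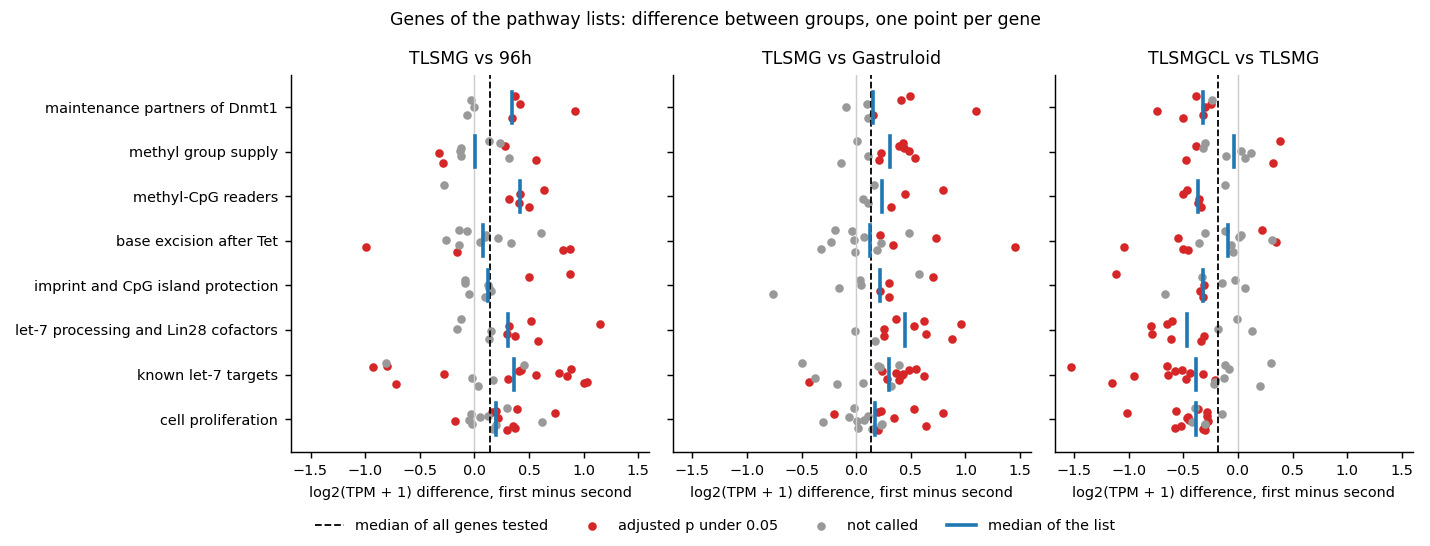
Difference in mean log2(TPM + 1) (x axis, first group minus second) of each tested gene (points, red where the adjusted p is under 0.05) in 8 lists of related genes, with the median of the list (blue bar) and of all 14290 genes (dashed line) in 3 comparisons. The medians of let-7 processing genes lie at 0.31, 0.44 and -0.47, and those of base excision genes at 0.08, 0.13 and -0.09, beside the dashed lines at 0.143, 0.134 and -0.184.

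With LDN added to CHIR, no gene of these lists was called by limma in TLSMGCL against TLSMGC. At an unadjusted p under 0.05 there were 3 of 18 let-7 targets, 3 of 10 methyl supply genes, 2 of 7 Dnmt1 partners, 2 of 18 proliferation genes, 1 of 10 let-7 processing genes and 1 of 4 germline genes, beside 1850 of all 14290 genes. Dnmt3b gave 0.04 with an interval of -0.11 to 0.19, Uhrf1 0.07 with -0.04 to 0.19, and Dnmt1 0.00 with -0.18 to 0.19. On TPM, differences of 0.2 or more in either direction therefore lay outside these 3 intervals. For Dnmt3l the interval was -0.72 to 0.63 and for Tet1 -0.50 to 0.27, too wide to say so. After median-of-ratios scaling Dnmt3b gave 0.08, Uhrf1 0.11 and Dnmt1 0.04, and intervals on that scale are not given here.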

How the data were processed

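Bulk RNA-seq tables of 15 libraries in 5 groups of 3 were used; the 5 single-cell samples were not analysed here. The authors deposited gene abundance tables with TPM, FPKM and coverage per gene, per the file headers. The submitters' processing notes name cutadapt 2.4, STAR 2.7.3a, StringTie 2.0 and build mm10; the annotation release and settings are not given in the sources used here. The labels' protocols describe stranded 75-base paired-end libraries. Lines of one gene ID, 7 to 13 per table, were summed. The deposited FPKM values and the deposited coverage values entered only alternatives and checks.

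Values were taken as log2(TPM + 1), which understates changes of low genes, for the 14290 genes whose TPM averaged 1 or more. They were tested with limma (version 3.58.1, R 4.3.3) in 1 model of 5 groups with a trended prior, two-sided, with Benjamini-Hochberg adjustment over all genes within each comparison and a threshold of 0.05. There were 6 main comparisons, and 4 further pairs served the order of levels, with their member calls also given. The fit was tested on simulated data. The labels call the libraries biological replicates, and p-values measure the spread between these pools. Promoters of all 10 members and the microRNAs matched RefSeq tables; coordinates of genes equal those of GENCODE M21. All 10 members are named. Of each list, the 2 genes with the largest called difference per comparison set which names are given. Tdg, Zfp42, Esrrb, Sycp3, Otx2, Sox2, Pou5f1, Dppa5a, Klf4 and Tfcp2l1 were named outside this rule, after values were seen. For members whose group means span at least 1 on the log2 scale, the 3 most correlated genes with a mean of at least 5 TPM are named. One gene that this rule names is not reported here. Members and lists were chosen with earlier results of these data known. Alternatives were a pseudocount of 0.1, no filter, a minimum mean of 5 TPM, FPKM, median-of-ratios scaling, GC and length correction, the highest line per gene, no trend, fits of 2 groups, a replicate block, leaving out each library and, added after the data were seen, coverage. Python 3.11.15 with pandas, numpy and scipy prepared tables.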

Additional observations from a re-analysis of the deposited data

How the results depend on the processing

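Of 27 member calls in the 6 comparisons, 13 held under every alternative: Dnmt3b and Lin28a in Gastruloid and in TLSMG against 96h, Tet3 and Lin28b in TLSMG against 96h, Tet3 and Lin28a in TLSMG against Gastruloid, Dnmt1 and Dnmt3l in TLSMGC against TLSMG, and Dnmt3l, Lin28a and Lin28b in TLSMGCL against TLSMG. The cause of the other losses was not tested. Members called in Gastruloid against 96h, 2 on TPM, were 4 with FPKM and 5 with a fit of only those groups, with the GC and length correction or with coverage. In TLSMG against Gastruloid the 7 became 3 with FPKM or median-of-ratios scaling and 2 with the GC and length correction, where all called genes went from 5622 to 3204. In TLSMGC against TLSMG the 7 became 4 with no filter, 3 with FPKM or median-of-ratios scaling and 2 with the GC and length correction, and in TLSMGCL against TLSMG the 7 became 4 with that correction, 3 of them lower as before (Dnmt3l, Lin28a and Lin28b) and Dnmt3b higher. In TLSMGCL against TLSMGC, 169 called genes became 42 and the 0 members 1 (Dnmt3a) with a fit of only those groups, and the genes 275 with the GC and length correction. Of 40 neighbouring pairs of levels 7 differed, and 4 did with no filter. Differences that turned were Uhrf1 in TLSMG against 96h (-0.17 with median-of-ratios scaling), Uhrf1 in TLSMGCL against TLSMG (0.05 with that scaling, 0.02 with the GC and length correction), Dnmt3b there (0.21 with the GC and length correction), and Dnmt3a with coverage (-1.05 against TLSMG, -0.83 against Gastruloid and -0.82 against 96h for TLSMGCL). Another 70 sign changes were of differences called in neither fit. Leaving out one library gave 4905 to 5244, 5651 to 6024, 4264 to 5173, 4703 to 5392, 56 to 198 and 5080 to 6243 called genes in Gastruloid and TLSMG against 96h, TLSMG against Gastruloid, TLSMGC against TLSMG, TLSMGCL against TLSMGC and TLSMGCL against TLSMG, in that order, and 2 to 3, 4, 4 to 7, 3 to 6, 0 and 5 to 7 members, with 7 to 9 in the F test of 5 groups and 5 to 9 in that of 4. The libraries that moved a count by over 1.5 times were Gastruloid replicate 2 (4 members in TLSMG against Gastruloid without it), TLSMG replicates 2 and 3 (3 members in TLSMGC against TLSMG without either, and 5 in the F test of 4 groups without replicate 3), TLSMGC replicate 3 (4 members in TLSMGC against TLSMG), and TLSMGC replicate 2, TLSMGCL replicate 1 and TLSMGCL replicate 3 (56, 70 and 78 genes in TLSMGCL against TLSMGC).

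Over all genes, deviations of same-numbered libraries correlated at -0.18 to 0.10 in the 6 comparisons. No pairing was seen, but a shared batch that touched only some genes would not show in this check. With the replicate block the member counts were, in the same order, 2, 4, 7, 7, 0 and 7, as without it, and no member call in the 6 comparisons changed; among the further pairs Dnmt3a in TLSMGC against 96h was lost (-0.84, adjusted p = 0.0551). The replicate block with the GC and length correction gave 5, 4, 2, 2, 0 and 4 members, 2841 genes in TLSMG against Gastruloid, and 0.21 for Dnmt3b and 0.02 for Uhrf1 in TLSMGCL against TLSMG. With no counts, precision rests on 3 libraries per group, and Dnmt3a, Tet1, Tet2 and Dnmt3l are the least certain levels.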
